A study of Mus musculus with 48 samples.

Results

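The plasma proteins of complement and of blood clotting were followed as transcripts in mouse liver. The set comprised 35 genes, chosen by name as components, proteases, substrates and inhibitors of the 2 cascades. Each gene was read by its brightest probe on average over all groups. All 35 were kept by the filter on dim probes, out of 20486 genes kept, and all 35 probes were well above background on all 6 arrays of every group.

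The livers came from male mice carrying floxed alleles of p110α, the catalytic subunit of the insulin-responsive PI3Kα. In p110αhep-/- mice (LKO), a single copy of albumin-Cre deletes the gene in hepatocytes, whereas p110αhep+/+ littermates (LWT) carry the floxed alleles without Cre, so both genotypes are floxed. From 12 weeks of age, mice received for 12 weeks either a high-fat diet with 60% of calories from fat (HFD) or a control diet (CTRL), and were then either fed ad libitum or fasted for 24 h and killed at ZT16, that is, 16 h after lights on. This gave 8 groups of 6 mice with 1 array per mouse, 48 in all. The RNA was from whole liver, which still holds the cells in which albumin-Cre is not active, and in bulk samples fewer cells of a type and less RNA per cell cannot be told apart.

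Complement is a chain of plasma proteases started by antibody complexes, by lectins that bind microbial sugars, or by slow spontaneous activation of C3. The routes meet at C3 and C5 and end in a pore built from C5b, C6, C7, C8 and C9. Clotting is a parallel chain of proteases that ends when thrombin cuts fibrinogen into fibrin, is held back by antithrombin and by the protein C and protein S pair, and is undone by plasmin. Hepatocytes make most of these proteins, and several, such as fibrinogen and C3, are classical acute phase proteins induced by interleukin-6.

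Between 50.1% and 57.4% of probes on an array were well above background, and no spot was saturated. The lowest array weight, 0.35, belonged to a fed LKO mouse on HFD (replicate 3). The hepatocyte markers gave a summed log2 intensity between 20.08 and 20.33 in all 48 arrays, and 7 defining genes of Kupffer cells and macrophages summed to between 14.37 and 16.23. *Pik3ca*, which encodes p110α, read 13.02 to 13.33 in fed LKO mice on CTRL diet and 12.79 to 13.09 in fed LWT mice, and was called higher in LKO livers in fed mice on CTRL diet (0.39, adjusted p = 0.000403), in fed mice on HFD (0.58, adjusted p = 2.73e-07) and in fasted mice on HFD (0.25, adjusted p = 0.0172). In the study the deletion removes some exons of the gene and was typed by PCR of DNA, and where this probe lies relative to those exons was not tested, so it does not check the deletion. The genotype of each mouse was taken from the labels.

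The fibrinogen genes *Fga*, *Fgb* and *Fgg*, which lie together on chromosome 3, and the neighbouring pair *C8a* and *C8b* on chromosome 4 moved in the same direction in the comparisons with the largest differences. For this reason the 250 bases before the start of each of these genes are shown, together with those of *Hc*, which encodes C5. The sequences are from RefSeq (GRCm38.p6) and are written 5′ to 3′ on the strand of the gene. They cover chr3:83025903-83026152 (+) for *Fga*, chr3:83049864-83050113 (-) for *Fgb*, chr3:83007474-83007723 (+) for *Fgg*, chr4:104876399-104876648 (-) for *C8a*, chr4:104766067-104766316 (+) for *C8b* and chr2:35061413-35061662 (-) for *Hc*. Capitals mark exact matches, on either strand, to any of 6 letter patterns.
Fga: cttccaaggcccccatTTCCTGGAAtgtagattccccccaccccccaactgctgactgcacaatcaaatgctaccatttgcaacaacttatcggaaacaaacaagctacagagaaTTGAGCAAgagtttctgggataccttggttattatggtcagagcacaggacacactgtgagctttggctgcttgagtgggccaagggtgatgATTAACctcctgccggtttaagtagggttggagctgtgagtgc
Fgb: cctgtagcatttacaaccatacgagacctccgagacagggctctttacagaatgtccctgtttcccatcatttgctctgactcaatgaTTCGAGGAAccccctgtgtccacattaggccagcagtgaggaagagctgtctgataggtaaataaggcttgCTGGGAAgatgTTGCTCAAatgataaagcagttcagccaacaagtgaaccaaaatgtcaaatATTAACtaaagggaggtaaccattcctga
Fgg: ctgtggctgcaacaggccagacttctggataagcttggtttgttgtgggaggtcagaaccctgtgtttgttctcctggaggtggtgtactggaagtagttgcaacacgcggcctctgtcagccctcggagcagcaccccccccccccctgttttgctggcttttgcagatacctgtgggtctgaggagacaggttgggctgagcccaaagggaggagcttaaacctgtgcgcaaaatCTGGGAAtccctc
C8a: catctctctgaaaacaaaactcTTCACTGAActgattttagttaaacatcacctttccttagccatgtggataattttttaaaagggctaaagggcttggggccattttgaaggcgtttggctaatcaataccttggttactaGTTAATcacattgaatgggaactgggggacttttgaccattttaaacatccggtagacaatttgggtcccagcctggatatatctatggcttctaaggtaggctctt
C8b: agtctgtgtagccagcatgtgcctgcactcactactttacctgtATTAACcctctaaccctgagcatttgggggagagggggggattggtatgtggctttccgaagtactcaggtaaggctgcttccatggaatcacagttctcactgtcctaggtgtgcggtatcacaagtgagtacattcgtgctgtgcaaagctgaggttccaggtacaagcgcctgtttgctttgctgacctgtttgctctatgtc
Hc: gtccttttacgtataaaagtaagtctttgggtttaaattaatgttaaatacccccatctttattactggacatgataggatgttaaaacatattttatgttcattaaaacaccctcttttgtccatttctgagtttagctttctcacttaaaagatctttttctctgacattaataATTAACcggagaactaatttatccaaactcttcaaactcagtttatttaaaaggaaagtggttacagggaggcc

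The 6 patterns were searched from 250 bases before to 50 after the start in the 27 members that had a RefSeq promoter entry, and the share of all 32851 promoters of the same length was taken beside each. C4b, Cfb, Cfi, Masp1, Plg, Proc, Serping1 and Kng1 had no entry. The HNF1 half-site GTTAAT was found in 8 of 27 members (29.6%), against 7.10% of all promoters. It stood from -43 to -38 in *Fga*, from -29 to -24 in *Fgb*, from -107 to -102 in *C8a*, from -206 to -201 in *C8b* and from -74 to -69 in *Hc*, and was not found in *Fgg*. TTGCNNAA, the letters of a C/EBP site, occurred in 9 of 27 members (33.3%) and 10.8% of promoters, including *Fga*, *Fgb* and *C3*. The STAT letters TTCNNNGAA occurred in 7 of 27 (25.9%) against 8.30%, and the interleukin-6 response letters CTGGGAA in 6 of 27 (22.2%) against 11.1%, among them *Fgb* and *Fgg*. These last 2 patterns overlapped each other in *F9* and *Masp2*. The forkhead letters TGTTTAC were present in *F11* and *Klkb1* (7.41% of members, 3.65% of promoters), and the HNF4 letters CAAAGTCCA were in no member and in 0.475% of promoters. A match is a description of these letters and was not tested as a binding site.

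Between 14 and 23 of the 35 members rose with fasting in LWT livers or were higher in fed LKO than in fed LWT livers, and the set included a group of transcripts that HFD lowered in fed LWT livers. Calls were made at an adjusted p of no more than 0.05, over all probes kept. Fasting raised 14 of 35 members in LWT mice on CTRL diet and lowered none, whereas 16% of all genes were called higher and 16.6% lower. On HFD, fasting raised 23 of 35 members in LWT mice and lowered none, against 13.8% and 14.8% of all genes. The median log2 fold change of the members was 0.11 on CTRL diet and 0.22 on HFD, and that of all genes was 0.00 in both. The CTRL median was 0.21 with the 75th percentile and 0.22 with median scaling.

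In LKO livers the fasting counts were small. On CTRL diet, 1 member was higher and 7 were lower after fasting, and on HFD 4 were higher and 3 lower. The shares of all genes were 16.4% higher and 19.2% lower on CTRL diet, and 14% higher and 14.7% lower on HFD. The direction of this split depended on the scaling. With processed signals scaled to the 75th percentile, 8 members were higher and 1 lower on CTRL diet, and with median scaling 6 were higher and 1 lower. On HFD both scalings gave 6 higher and 1 lower, and the deposited log2 values gave 3 higher and 4 lower.

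In fed mice on CTRL diet, 18 of 35 members were higher and 1 was lower in LKO than in LWT livers, where 11% of all genes were higher and 10.7% lower. In fed mice on HFD, 21 members were higher in LKO livers and none lower, against 16.6% and 16.4% of all genes. The medians were 0.22 and 0.30 for the members and 0.02 and 0.03 for all genes. After fasting, the genotype difference was smaller in count. It comprised 5 higher and 3 lower members on CTRL diet (12.5% and 12.3% of all genes), and 13 higher and 5 lower on HFD (19.2% and 17.7%). Scaling to the 75th percentile gave 9 higher and 1 lower on CTRL diet and 19 higher and 2 lower on HFD, and median scaling gave 11 and 2, and 18 and 2.

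HFD lowered 12 of 35 members and raised 3 in fed LWT livers, whereas 11.6% of all genes were lower and 12.4% higher. In fasted LWT livers the diet called 3 members in each direction (8.99% of all genes higher and 7.05% lower). In LKO livers it called 2 higher and 3 lower when fed (5.91% and 6.43% of all genes), and 4 higher and none lower when fasted (5.67% and 5.17%). These diet splits also moved with scaling. The 75th percentile gave 1 higher and 19 lower in fed LWT livers, 0 and 13 in fasted LWT livers, 1 and 4 in fed LKO livers and 3 and 4 in fasted LKO livers. Median scaling gave 1 and 17, 0 and 11, 1 and 4, and 3 and 3, and in fasted LKO livers normexp background correction gave 4 and 1.

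**Figure D1:**
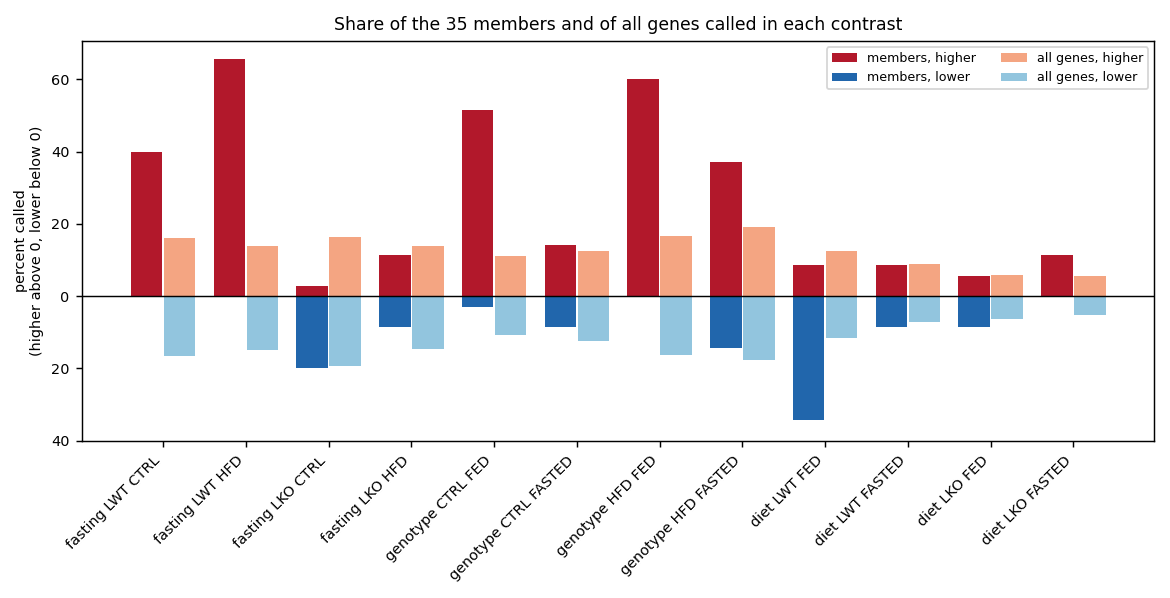
Share of the 35 members (dark bars) and of all 20486 genes (light bars) called at an adjusted p of at most 0.05 in each of the 12 pairwise contrasts, in percent, with higher above 0 and lower below 0. Members called higher reached 65.7% for fasting in LWT mice on HFD and 60% for the genotype difference in fed mice on HFD.

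Differences over 1.5-fold were most frequent in 3 comparisons. They were 4 members raised by fasting in LWT mice on HFD (2.25% of all genes), 7 members higher in fed LKO than LWT mice on HFD (2.21%), and 4 members lowered by HFD in fed LWT mice (1.08%). The number of members whose 6 values in one group did not overlap the 6 in the other, in either direction, was 12 of 35 for the first of these (10.9% of all genes), 15 for the second (13%) and 10 for the third (9.51%). For the genotype difference in fed mice on CTRL diet it was 10 of 35 (6.21%). All 3 comparisons share the 6 fed LWT mice on HFD, so that a deviation of that group enters each of them. Within each of the 2 washing batches of 3 mice per group, the median difference of the 35 members was 0.12 and 0.05 for fasting in LWT mice on CTRL diet, 0.29 and 0.18 for the same on HFD, 0.18 and 0.21 for genotype in fed mice on CTRL diet, 0.32 and 0.33 for genotype in fed mice on HFD, and -0.14 and -0.04 for diet in fed LWT mice. The 2 batches differed in sign for fasting in LKO mice on HFD (0.10 and -0.03), genotype in fasted mice on CTRL diet (-0.04 and 0.06) and diet in fasted LWT mice (-0.07 and 0.07).

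**Figure D2:**
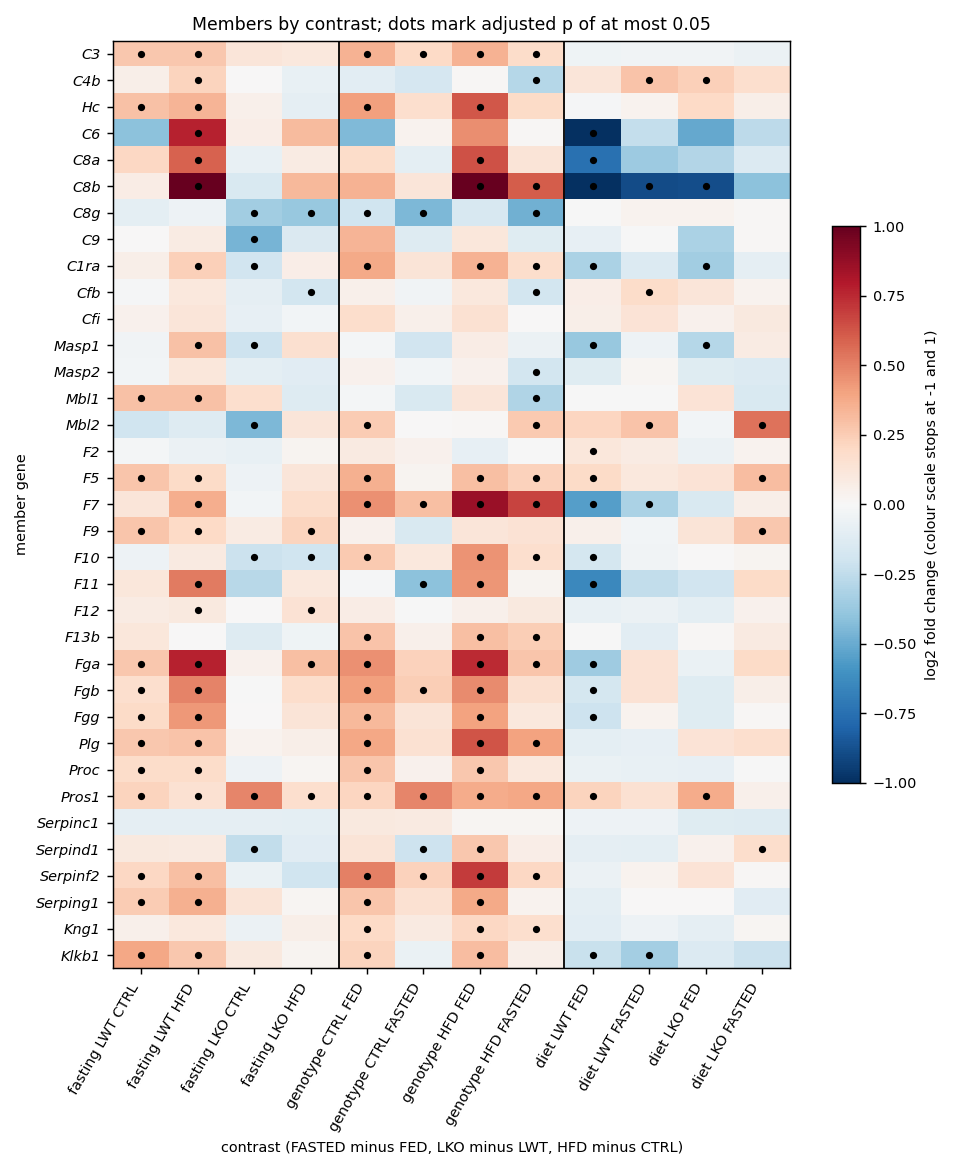
Log2 fold change of each of the 35 members (rows) in each of the 12 pairwise contrasts (columns), with dots where the adjusted p was at most 0.05. Colour stops at -1 and 1, which *C8b* (-1.94) and *C6* (-1.42) exceed for the diet effect in fed LWT mice.

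The largest differences of the set were those of *C8b* and *C6*, 2 transcripts of the terminal complement pore. *C8b* encodes the β chain of C8, the component that anchors the pore in the membrane. In fed LWT livers, its log2 intensity was 13.40, 13.52 and 14.41 (lowest, median and highest of 6) on CTRL diet, and 11.40, 11.68 and 12.05 on HFD. The ranges did not overlap, and the difference was 3.84-fold (log2 fold change -1.94 ± 0.17 SE, adjusted p = 5.8e-11). In fed LKO livers on HFD the values were 12.72, 12.99 and 13.98, all above the LWT range, which was a 2.65-fold difference (1.41 ± 0.18, adjusted p = 6.99e-08). Fasting on HFD brought LWT livers to 12.29, 12.93 and 13.08, again above every fed LWT value (1.12 ± 0.17, adjusted p = 2.13e-06). The HFD difference in fed LKO livers was smaller, at -0.88, and the genotype-by-diet interaction was 1.06 ± 0.26 in fed mice (adjusted p = 0.0189). The probe lies at chr4:104477094-104477153 on mm9, the build of the scanner files, and another probe of *C8b* gave -1.90 for the diet effect in fed LWT livers and 1.58 for the genotype difference in fed mice on HFD.

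*C8a*, the α chain, followed *C8b* with smaller differences. Fed LWT livers read 13.51, 13.76 and 14.15 on CTRL diet and 12.95, 13.04 and 13.18 on HFD, with no overlap (-0.74 ± 0.13, adjusted p = 3.34e-05). Fed LKO livers on HFD ranged from 13.22 to 14.36, wholly above LWT (0.63 ± 0.14, adjusted p = 0.000312), and fasted LWT livers on HFD from 13.31 to 13.99 (0.59 ± 0.13, adjusted p = 0.000419). *C8g* encodes the small γ chain, a lipocalin bound to C8α, and was called in none of these comparisons. It was called lower in LKO livers in fasted mice on both diets (-0.45 and -0.48) and in fed mice on CTRL diet (-0.20), the last losing its call in 5 of 14 alternatives, both scalings among them. In fasted mice on CTRL diet it read 16.44, 16.50 and 16.71 in LWT and 15.95, 16.10 and 16.14 in LKO livers, which did not overlap. Fasting lowered *C8g* in LKO livers on both diets (-0.35 and -0.38), the former to as little as -0.17 and no call under the other scalings, while in LWT livers the estimates were -0.10 and -0.05 and were not called.

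*C6*, which joins C5b to begin the pore, varied widely among mice. Its fed LWT values were 10.46, 11.59 and 12.11 on CTRL diet and 9.61, 10.04 and 10.78 on HFD, so the ranges overlapped although the means differed 2.68-fold (-1.42 ± 0.22, adjusted p = 5.73e-06). Fasting on HFD raised it in LWT livers to between 10.12 and 11.37 (0.77 ± 0.22, adjusted p = 0.0063). The fasting difference on CTRL diet was -0.41 and not called, and the diet-by-fasting interaction in LWT livers was 1.18 ± 0.31 (adjusted p = 0.0332). *C9*, which forms the wall of the pore, was called in 1 contrast. It fell with fasting in LKO livers on CTRL diet, from 15.13, 15.23 and 15.47 to 14.30, 14.84 and 15.00, by 0.47 on the log2 scale (adjusted p = 0.0133), but was not called with the 75th percentile or median scaling.

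*Hc*, the gene of C5, was higher in fed LKO livers on both diets. On CTRL diet it read 13.73, 13.89 and 14.17 in LWT and 14.14, 14.35 and 14.47 in LKO livers, which overlapped slightly (0.41 ± 0.09, adjusted p = 0.000482). On HFD it read 13.77, 13.93 and 13.97 against 14.33, 14.52 and 14.86, without overlap (0.62 ± 0.09, adjusted p = 2.59e-07). Fasting raised *Hc* in LWT livers by 0.29 and 0.34 on the 2 diets. In LKO livers the fasting estimates were 0.05 and -0.09, and the interaction on HFD was -0.43 ± 0.12 (adjusted p = 0.0413).

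**Figure D3:**
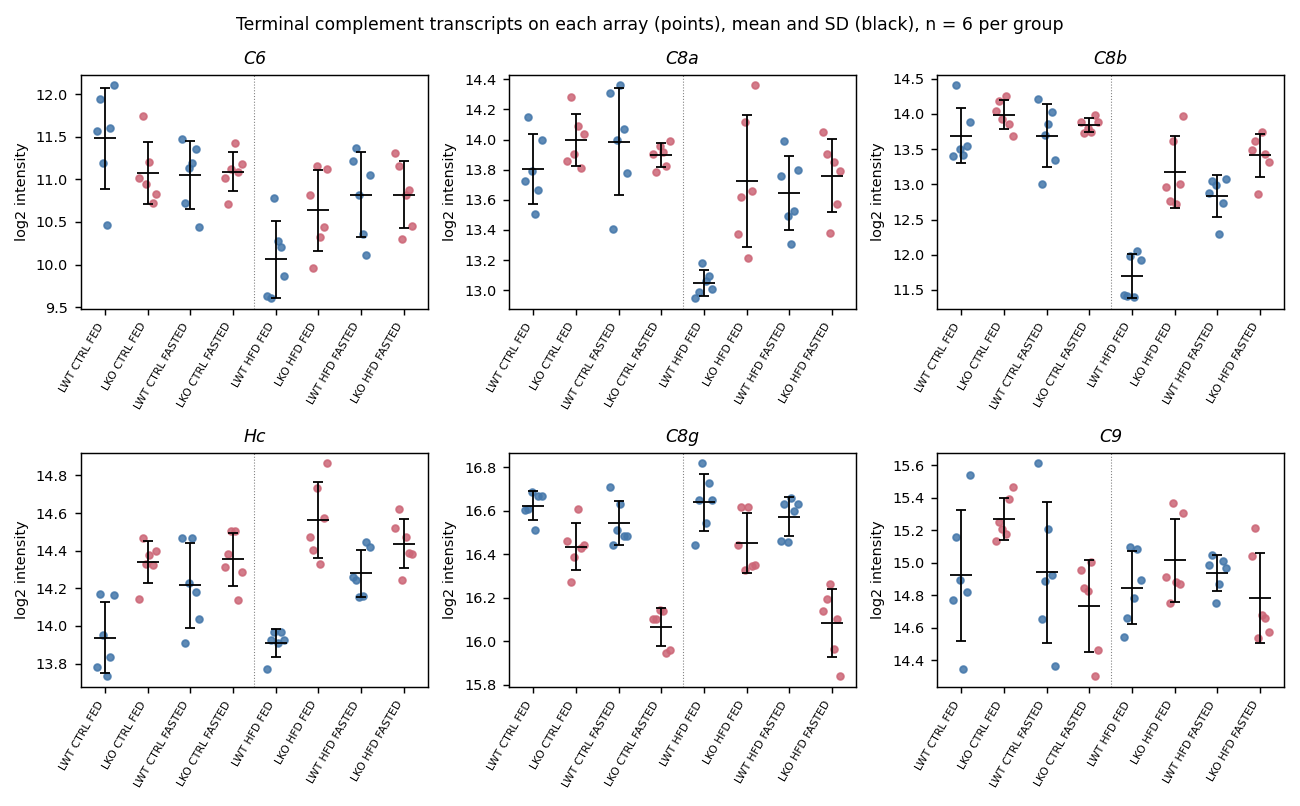
Log2 intensity of 6 transcripts of the terminal complement pathway in each mouse (points), with mean and SD in black and n = 6 per group; LWT is blue, LKO is red and the dotted line separates the diets. In fed LWT mice on HFD, *C8b* lies between 11.40 and 12.05, below every mouse of the other 7 groups.

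Upstream of the pore, *C3*, on which all routes converge, was higher in LKO livers in all 4 settings. In fed mice on CTRL diet it read 18.07, 18.29 and 18.43 in LWT and 18.54, 18.59 and 18.67 in LKO livers (0.35 ± 0.05, adjusted p = 3.17e-06), and the fed difference on HFD was also 0.35. The fasted differences were 0.20 on CTRL diet, not called with the 75th percentile, and 0.18 on HFD. Fasting raised *C3* by 0.27 in LWT livers on each diet, and the LKO estimates of 0.12 and 0.11 were not called. Its genotype-by-fasting interaction was not called on either diet. The probe ranked between 6 and 43 from the brightest on every array, where quantile normalization sets a value by its rank, and took 25 different values over 48 arrays. The probes of *Fgb*, *Kng1*, *Fgg*, *Serpinc1* and *F2* ranked between 11 and 133, so the same limit holds for them. A dimmer probe of *C3* gave 0.47 and 0.60 for the fed genotype differences.

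Several members that start the cascade were also called. *C1ra*, a protease of the C1 complex, was called in 7 contrasts, higher in fed LKO livers (0.38 and 0.35) and lower on HFD in fed mice of both genotypes (-0.31 in LWT and -0.35 in LKO livers). *C4b*, cleaved by C1s and MASP2, was higher on HFD in fasted LWT (0.29) and fed LKO livers (0.24), and lower in LKO than LWT livers when fasted on HFD (-0.29), none of which was called with the 75th percentile or median scaling. *Cfb*, the protease of the alternative pathway, read 15.95, 16.05 and 16.25 in fasted LWT mice on HFD and 15.77, 15.88 and 16.05 in fasted LKO mice, which overlapped (-0.19 ± 0.06, adjusted p = 0.0109). With these scalings *Cfb* was not called, at as little as -0.06, and its other probe gave -0.13 and no call. Probes for *C1ra*, *C4b* and *Kng1* may read the near-identical genes *C1rb*, *C4a* and *Kng2* as well.

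*Mbl1* and *Mbl2*, the mannose-binding lectins, differed from each other. Fasting raised *Mbl1* in LWT livers on CTRL diet from 13.02, 13.11 and 13.28 to 13.02, 13.45 and 13.57, with overlap (0.29 ± 0.07, adjusted p = 0.00214), and likewise on HFD (0.29). In LKO livers on HFD the estimate was -0.13, and the interaction was -0.42 ± 0.11 (adjusted p = 0.0243). *Mbl2* fell with fasting in LKO livers on CTRL diet, from 16.27, 16.45 and 16.55 to 15.65, 15.98 and 16.34, with overlap, by 0.45 on the log2 scale (adjusted p = 4.69e-05). In fasted LKO livers it was 0.54 higher on HFD than on CTRL diet, the largest difference of any member between these groups. *Masp1*, a protease carried by these lectins, gave -0.38 in LWT and -0.29 in LKO livers for HFD in fed mice, both called, but its 4 other probes did not bear out one direction. They ranged from -0.55 to 0.19 in LWT livers, and in LKO livers 1 of them was called higher (0.28) and the median over probes was -0.01. *Masp2* was called once (-0.19 in LKO against LWT livers fasted on HFD, lost in 4 of 14 alternatives), and *Cfi*, which inactivates C3b and C4b, in none of the 12 contrasts (-0.08 to 0.17).

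*Serping1*, the C1 inhibitor, which restrains C1, plasma kallikrein and factor XII and so belongs to both cascades, was raised by fasting in LWT livers (0.25 on CTRL diet and 0.36 on HFD). It was also higher in fed LKO than fed LWT livers (0.28 and 0.38). In LKO livers the fasting estimates were 0.13 and 0.02, and the genotype-by-fasting interaction was not called on either diet.

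Of the 19 members grouped here under clotting, contact activation and fibrinolysis, 13 were higher in fed LKO than LWT livers on CTRL diet and 15 on HFD, and none was lower, where 11% and 16.6% of all genes were higher. Fasting raised 10 of the 19 in LWT livers on CTRL diet and 13 on HFD, against 16% and 13.8% of all genes. Of the 15 members grouped here under complement, 4 were higher and 1 lower in fed LKO livers on CTRL diet, and 5 were higher on HFD. Fasting raised 3 of these 15 in LWT livers on CTRL diet, which is 20% and near the share of all genes, and 9 on HFD.

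The 3 fibrinogen chains moved in the same direction for fasting in LWT livers, for genotype in fed mice and for diet in fed LWT mice. *Fga*, the Aα chain, read 14.07, 14.15 and 14.46 in fed LWT livers on CTRL diet and 14.49, 14.60 and 14.78 in LKO livers (0.45 ± 0.11, adjusted p = 0.00154). On HFD it read 13.56, 13.83 and 13.91 in LWT and 14.32, 14.43 and 14.99 in LKO livers (0.75 ± 0.11, adjusted p = 4.72e-07). Neither pair of ranges overlapped. Fasting on HFD raised it in LWT livers to 14.28, 14.61 and 14.94 (0.77 ± 0.10, adjusted p = 7.54e-08), and the diet-by-fasting interaction was 0.50 ± 0.14 (adjusted p = 0.0494). This interaction of *Fga* kept its direction but lost its call in 10 of 14 alternatives, both stricter thresholds among them. On CTRL diet the fasting differences in LWT livers were 0.27 for *Fga*, 0.17 for *Fgb* and 0.20 for *Fgg*, calls that were lost in 4, 9 and 4 of 14 alternatives. A dimmer probe of *Fga* gave 0.56 (not called) and 0.90 for the fed genotype differences.

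*Fgb*, the Bβ chain, gave 17.77, 17.87 and 18.18 in fed LWT and 18.21, 18.30 and 18.40 in fed LKO livers on CTRL diet (0.41 ± 0.07, adjusted p = 1.63e-05). On HFD the values were 17.61, 17.70 and 17.78 against 17.98, 18.19 and 18.42 (0.47 ± 0.07, adjusted p = 5.97e-07). Both pairs were apart. *Fgg*, the γ chain, differed by 0.32 on CTRL diet, with overlap, and on HFD read 17.30, 17.42 and 17.53 in LWT and 17.65, 17.82 and 18.07 in LKO livers, without overlap (0.40 ± 0.07, adjusted p = 1.24e-05). Fasting on HFD raised *Fgb* by 0.49 and *Fgg* by 0.43 in LWT livers, and in both the fed and fasted ranges did not overlap. In LKO livers the corresponding estimates were 0.18 and 0.13 and were not called, nor was the genotype-by-fasting interaction of either chain. The LKO estimate of *Fga*, 0.30 (adjusted p = 0.045), lost its call in 6 of 15 alternatives, among them leaving out the down-weighted fed replicate 3. The dimmer probe of *Fga* gave 0.23 for this difference and was not called. HFD lowered all 3 chains in fed LWT livers (-0.36, -0.18 and -0.20), of which *Fga* was not called with the median over probes and *Fgb* without the filter on dim probes, and in fasted LWT livers the estimates of 0.15, 0.15 and 0.03 were not called.

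*F7*, the vitamin K-dependent protease that starts clotting with tissue factor, was higher in LKO livers in all 4 settings. On HFD, fed LWT livers read 10.62, 11.02 and 11.04 and fed LKO livers 11.53, 11.87 and 12.00, a 1.82-fold difference without overlap (0.86 ± 0.08, adjusted p = 1.33e-11). Fasted livers on HFD read 11.02, 11.34 and 11.54 against 11.83, 12.02 and 12.16 (0.68 ± 0.08, adjusted p = 1.2e-08). The differences on CTRL diet were 0.46 when fed and 0.30 when fasted, and the ranges were apart in all 4 settings. HFD lowered *F7* in LWT livers (-0.55 fed and -0.32 fasted), and the LKO estimates of -0.15 and 0.06 were not called. The genotype-by-diet interaction was called in both states, at 0.41 ± 0.11 when fed (adjusted p = 0.0362) and 0.38 ± 0.11 when fasted (adjusted p = 0.0386).

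**Figure D4:**
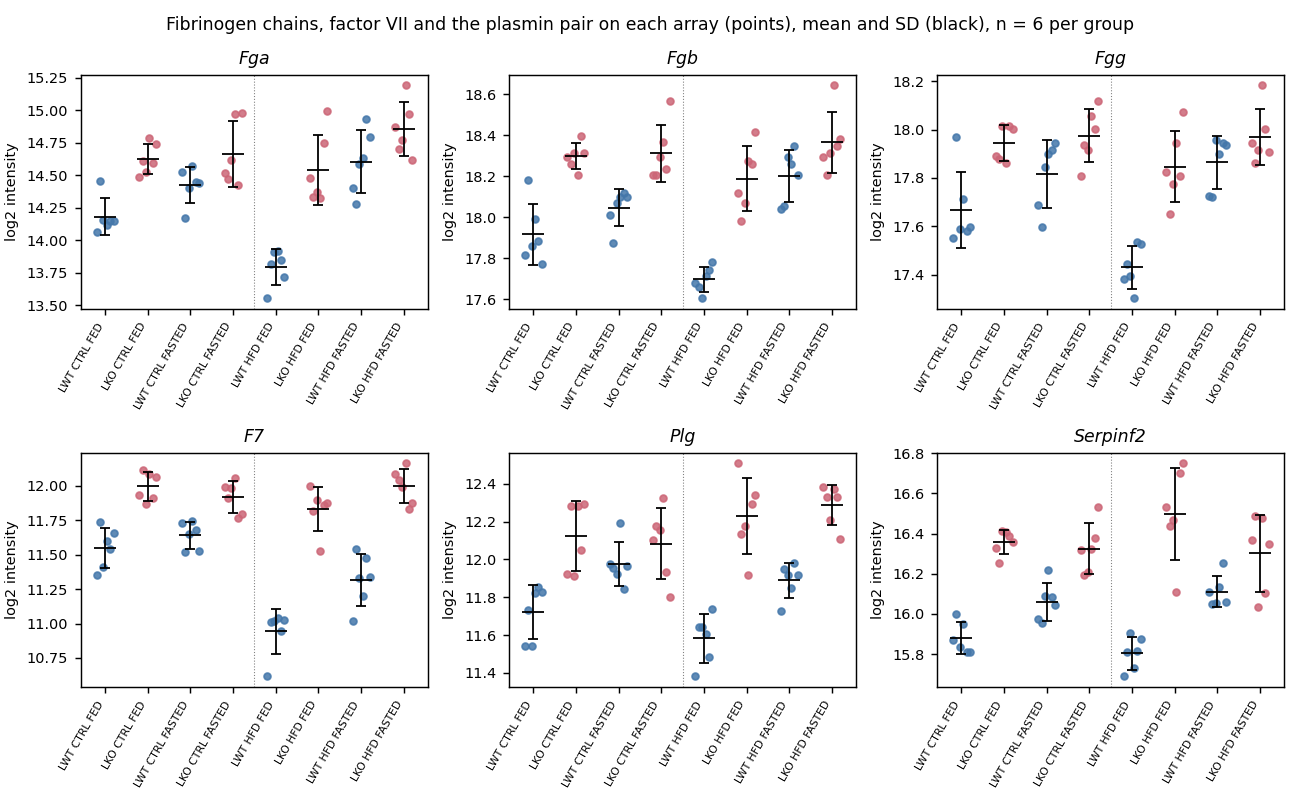
Log2 intensity of the 3 fibrinogen chains, factor VII, plasminogen and α2-antiplasmin in each mouse (points), with mean and SD in black and n = 6 per group; LWT is blue, LKO is red and the dotted line separates the diets. In fed mice on HFD each of the 6 transcripts has all LKO values above all LWT values.

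Among the other clotting factors, *F10*, where the 2 arms of the pathway meet, was 15.68, 15.72 and 15.81 in fed LWT and 16.11, 16.17 and 16.32 in fed LKO livers on HFD, without overlap (0.45 ± 0.05, adjusted p = 3.08e-10). In LKO livers the fasting difference of *F10* was -0.22 and -0.20, called on both diets, but as little as -0.06 and -0.07 and not called with the 75th percentile or median scaling. *F5*, the cofactor of factor X, rose with fasting in LWT livers on CTRL diet from 14.07, 14.22 and 14.42 to 14.35, 14.49 and 14.64, with overlap (0.28 ± 0.06, adjusted p = 0.000328). The LKO estimate was -0.05, and the interaction was -0.33 ± 0.09 (adjusted p = 0.0193).

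*F9*, the protease lacking in haemophilia B, rose with fasting in LWT livers on CTRL diet from 12.44, 12.58 and 12.67 to 12.73, 12.83 and 13.01, without overlap (0.27 ± 0.06, adjusted p = 0.000327). It was not called between genotypes in any setting. *F11*, which activates factor IX, was lowered by HFD in fed LWT livers from 11.86, 11.98 and 12.20 to 11.24, 11.29 and 11.55, without overlap (-0.65 ± 0.14, adjusted p = 0.000648), and fasting on HFD raised it by 0.52. *F13b*, the carrier subunit of the fibrin-crosslinking enzyme, was higher in fed LKO livers (0.28 and 0.30). *F2*, the gene of prothrombin, was called in 1 contrast. Fed LWT livers read 17.46, 17.53 and 17.65 on CTRL diet and 17.57, 17.64 and 17.69 on HFD (0.11 ± 0.04, adjusted p = 0.0329), which overlapped, and with signals scaled to the 75th percentile the sign turned (-0.02).

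The anticoagulant members did not move as one. *Serpinc1*, antithrombin, the main inhibitor of thrombin, was called in none of the 12 contrasts, and its log2 fold changes lay between -0.13 and 0.10. Its fed values on HFD were 17.67, 17.71 and 17.80 in LWT and 17.62, 17.77 and 17.79 in LKO livers. The probe used ranked 56 to 112 from the brightest, where the limit given for *C3* holds. A dimmer probe of *Serpinc1* was called lower for fasting in LKO livers on HFD (-0.21, adjusted p = 0.0472). *Proc*, protein C, was higher in fed LKO livers by 0.28 on CTRL diet and 0.27 on HFD. On HFD, where it read 15.73, 15.76 and 15.86 in LWT and 16.00, 16.04 and 16.09 in LKO livers, the groups were apart.

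*Pros1*, protein S, the cofactor of protein C, was called in 10 of the 12 contrasts, always higher, the most of any member, although the calls for fasting on HFD were lost in 5 of 14 alternatives in LWT and 7 of 15 in LKO livers. Fasting raised it in LKO livers as well, on CTRL diet from 13.23, 13.36 and 13.46 to 13.73, 13.85 and 14.08 (0.49 ± 0.06, adjusted p = 1e-08). In LWT livers on CTRL diet it went from 13.09, 13.15 and 13.20 to 13.28, 13.38 and 13.41 (0.22 ± 0.06, adjusted p = 0.00315). Both pairs of ranges were apart. The genotype-by-fasting interaction on CTRL diet was 0.27 and was not called (adjusted p = 0.056). *Serpind1*, heparin cofactor II, fell with fasting in LKO livers on CTRL diet from 15.25, 15.35 and 15.47 to 14.91, 15.10 and 15.25, ranges that met at 15.25, by 0.24 on the log2 scale (adjusted p = 0.000588), and by as little as 0.11 with no call under the other scalings. In LWT livers the estimate was 0.10, and the interaction was -0.34 ± 0.08 (adjusted p = 0.00825).

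The plasmin pair was higher in fed LKO livers. *Plg*, the zymogen of plasmin, read 11.54, 11.78 and 11.86 in LWT and 11.91, 12.17 and 12.29 in LKO livers on CTRL diet (0.39 ± 0.08, adjusted p = 0.000627). On HFD it read 11.38, 11.62 and 11.74 against 11.92, 12.24 and 12.51 (0.63 ± 0.08, adjusted p = 1.35e-07). A dimmer probe of *Plg* gave 0.22 on CTRL diet, not called, and 0.79 on HFD, called. *Serpinf2*, α2-antiplasmin, the inhibitor of plasmin, read 15.69, 15.81 and 15.90 against 16.11, 16.50 and 16.75 in fed mice on HFD (0.70 ± 0.07, adjusted p = 1.91e-10). It was also higher in fed LKO livers on CTRL diet (0.51), and none of these ranges overlapped. Fasting raised *Serpinf2* in LWT livers on HFD by 0.30, while the LKO estimate was -0.20, and the interaction of -0.49 ± 0.10 (adjusted p = 0.00269) had the lowest adjusted p among the members' genotype-by-fasting interactions.

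In the contact system, *Klkb1*, plasma prekallikrein, rose with fasting in LWT livers on CTRL diet from 13.14, 13.22 and 13.42 to 13.45, 13.67 and 13.81, without overlap (0.39 ± 0.07, adjusted p = 1.86e-05). In LKO livers the estimate was 0.10, and the genotype-by-fasting interaction was not called. *Kng1*, the kininogen that carries prekallikrein, was higher in LKO livers in fed mice (0.20 and 0.21) and in fasted mice on HFD (0.17). This probe is also among the brightest, ranking 31 to 67 with 26 different values, and its 2 dimmer probes gave 0.33 and 0.40 in fed mice on CTRL diet, 0.33 and 0.27 in fed mice on HFD and 0.28 and 0.46 in fasted mice on HFD, 1 of them being called in fasted mice on CTRL diet as well (0.28). *F12*, which prekallikrein activates, was called only for fasting on HFD, in LWT (0.10) and LKO livers (0.14), and the LWT call was lost in 8 of 14 alternatives.

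The difference in the fasting response between genotypes was tested directly. The fasting effect was more negative in LKO than in LWT livers for 33 of 35 members on CTRL diet and 30 of 35 on HFD, with median interactions of -0.19 and -0.23, against 0.00 for all genes on each diet. A median of 0.00 places about as many of all genes below 0 as above it. The 35 members were read in the same mice, so they are not replicates of this difference. On CTRL diet, 3 members passed the test, all negative, namely *F5*, *Proc* and *Serpind1*, where 3.97% of all genes were called. Normexp background correction gave 1 positive and 4 negative, the 75th percentile 1 and 3, and median scaling 1 and 2. On HFD, 6 members passed, all negative (3.49% of all genes). These were *Hc*, *C8g*, *Cfb*, *Mbl1*, *F10* and *Serpinf2*. The HFD count fell to 3 with the 75th percentile and 2 with median scaling, and was 11 with the slide as a block. The medians of the members kept their sign under every alternative setting, between -0.20 and -0.17 on CTRL diet and between -0.25 and -0.21 on HFD.

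**Figure D5:**
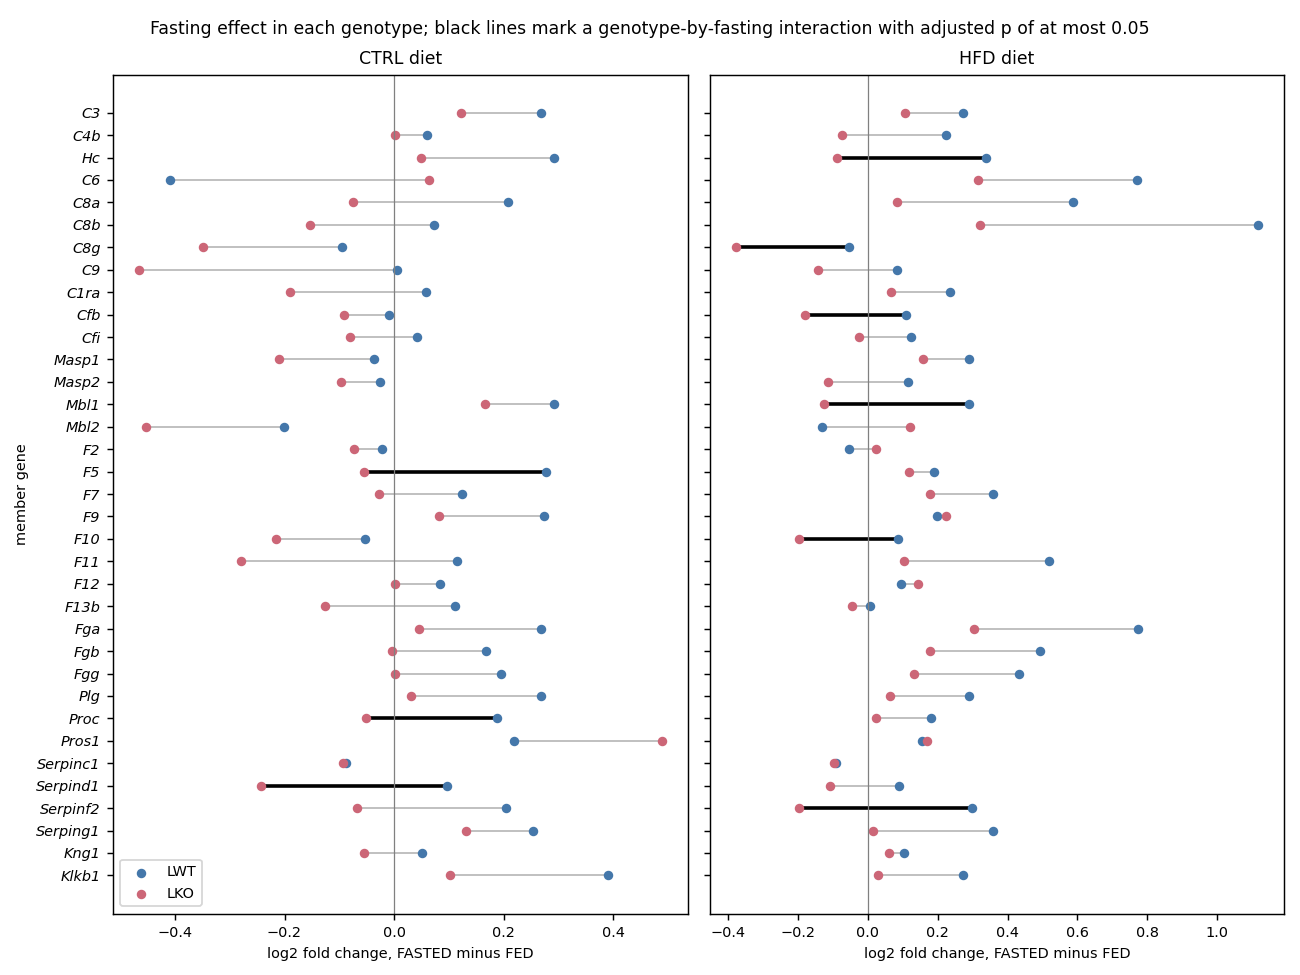
Log2 fold change of fasting (FASTED minus FED) for each of the 35 members in LWT (blue) and LKO (red) livers, on CTRL diet at the left and HFD at the right, with a line joining the 2 genotypes. Black lines mark the 3 members on CTRL diet and the 6 on HFD with a called interaction, and the LKO point is left of the LWT point for 33 and 30 members. The members were read in the same mice and are not replicates.

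The diet effect differed between genotypes for 2 members in fed mice (*C8b* and *F7*, 3.03% of all genes) and 3 in fasted mice (*F7*, *F9* and *Serpind1*, 5.09%), all positive. In fasted LKO livers *F9* was 0.27 higher on HFD, and *Serpind1* 0.18 higher, a call lost in 6 of 14 alternatives. The diet-by-fasting interaction was called for 4 members in LWT livers, all positive (*C6*, *C8b*, *Fga* and *Fgb*, 2.36% of all genes). In LKO livers it was called for *Mbl2* (0.57) and *Pros1* (-0.32), where 8% of all genes were called, and normexp correction called 2 positive and 1 negative. Among all called interactions, those of *Serpind1* (fasting, CTRL diet), *Serpinf2*, *C8b* (both), *Mbl2* and *Pros1* lost the call in 1 or 2 of 14 or 15 alternatives and the others in 3 to 10, with the direction kept in each.

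Other genes of the pathways were counted without regard to how they moved. Of 27 other complement genes measured, 8 were higher and 2 lower in fed LKO livers on CTRL diet and 10 higher and 4 lower on HFD. Of 26 other clotting genes, 6 were higher and 1 lower on CTRL diet and 6 higher and 5 lower on HFD. The shares of all genes were 11% higher and 10.7% lower on CTRL diet and 16.6% and 16.4% on HFD, so that several of these counts, such as the 5 clotting genes lower on HFD, were near the background. Named after their values were seen, *C2*, the protease of the C3 convertase, was 0.52 and 0.63 higher, and *Hrg*, histidine-rich glycoprotein, 0.50 and 0.71 higher. For fasting in LWT livers the counts were 3 higher and 3 lower, then 5 and 4, for complement, and 1 and 6, then 5 and 7, for clotting, on CTRL diet and HFD, where 16% of all genes were higher and 16.6% lower, then 13.8% and 14.8%.

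Further lists were counted for comparison. Of 15 other acute phase proteins, 4 were higher and 2 lower in fed LKO livers on CTRL diet, and 5 higher and 7 lower on HFD, beside 11% and 10.7%, then 16.6% and 16.4%, of all genes. *Saa1* and *Saa2*, serum amyloid A proteins, were among those lower on HFD (-1.02 and -1.25). Fasting on HFD raised 8 of 15 in LWT livers and lowered none, and HFD raised 4 and lowered none in fed LWT livers (13.8% and 12.4% of all genes higher). Of 11 hepatocyte transcription factors, 4 were higher in fed LKO livers on HFD (16.6% of all genes), 5 were raised by fasting on HFD in LWT livers (13.8%), 3 were lowered by HFD in fed LWT livers (11.6%), and none was called the other way.

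Among the markers of other cell types, those of cholangiocytes differed between genotypes. Of 5 cholangiocyte markers, 3 were lower in fed LKO livers on CTRL diet and 4 on HFD, where 10.7% and 16.4% of all genes were lower, and none was higher. Their summed log2 intensity was 9.55 to 10.06 in LKO and 10.64 to 11.88 in LWT livers on CTRL diet, and 9.81 to 10.14 against 11.31 to 12.40 on HFD. The 8 hepatocyte markers summed to 20.22 to 20.25 in fed LKO and 20.12 to 20.17 in fed LWT livers on CTRL diet, and to 20.17 to 20.33 against 20.13 to 20.22 on HFD. These sums were higher in LKO livers without overlap on CTRL diet, and overlapped on HFD. *Alb* alone differed by 0.02 and -0.02 and was not called, which does not describe the other markers of the list. Kupffer cell, endothelial, stellate and leukocyte marker sums overlapped between genotypes on each diet in fed and fasted mice, except the endothelial sum in fasted mice on CTRL diet, which was 14.08 to 14.25 in LKO and 13.64 to 14.07 in LWT livers. Cholangiocyte sums were apart in fasted mice too, at 9.13 to 9.52 against 10.50 to 11.22 on CTRL diet and 9.25 to 9.82 against 11.18 to 11.88 on HFD. The part of cell composition in the members' differences was not tested.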

How the data were processed

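Liver RNA (200 ng) was labelled with 1 colour and hybridized to Agilent mouse arrays, 1 array for each of 48 mice. The authors scanned the arrays, and the deposited scanner files, made with Agilent Feature Extraction 10.10.1.1 per the submitters' processing notes, give the median intensity of each spot on a linear scale. The authors also deposited log2 values that they had filtered, corrected for the washing batch and quantile-normalized, and these served as an alternative; their exact filter is not given in the sources used here. Of 62976 spots, 59305 are not controls and represent 56605 probes.

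Following the study's methods, the median intensity was log2 transformed, corrected for the 2 washing batches and quantile-normalized. Outlier spots (92 to 151 per array) were set to missing. Spots of a probe were averaged, and a probe was kept if well above background on at least 5 of 6 arrays in at least 1 group, which left 30793 probes of 20486 genes, each gene read by its brightest probe. A mean per group was fitted with limma 3.58.1 in R 4.3.3 and array weights (0.35 to 1.71), and 12 pairwise contrasts and 6 interactions were tested. The Benjamini-Hochberg correction covered all 30793 probes, and an adjusted p no higher than 0.05 was a call. Fold changes and SE are from this weighted fit, so they need not equal differences of the group values. The labels name separate mice, 6 per group. Every adjusted p in the text is from this limma test, and the fit was tested on simulated data with known changes.

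The median spot signal was 53 to 71 per array over a background of 22 to 42. Precision is limited by the 6 arrays per group. The highest correlation between any 2 arrays was 0.998, and no 2 held identical values. Group values are given for members called with a fold change over 1.5 in any pairwise contrast, for the 2 called members with the largest log2 fold change in each, for members with a called interaction and, in all cases, for C3, Hc, Fga, Fgb, Fgg, F2, Plg and Serpinc1, and the others are given by range. The members, lists and rules were chosen with earlier results of these data known, so no count is independent support. Alternatives were other background corrections and scalings, other filters, a block for the slide, the washing batch or the replicate number, equal array weights, the median over a gene's probes, stricter thresholds and leaving out the array with the lowest weight.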

Additional observations from a re-analysis of the deposited data

Results flagged for a closer look

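In 13 of 280 member-by-group sets of 6 values (4.64%), 1 mouse stood apart from the other 5, by a gap to its neighbour that was large for the whole range (Dixon's test at the 95% level), which chance gives in about 1 in 20. In fasted LWT mice on CTRL diet these were *C3* in replicate 2 (18.28, the others 18.53 to 18.61), *C4b* in replicate 4 (17.11, the others 16.76 to 16.87) and *Kng1* in replicate 1 (18.03, the others 18.09 to 18.12). Among fasted LWT mice on HFD they were *Mbl1* in replicate 1 (13.20, the others 13.38 to 13.48), *F2* in replicate 6 (17.69, the others 17.55 to 17.60) and *Kng1* in replicate 1 (18.16, the others at most 18.04). Among fed LWT mice on HFD, replicate 1 was low for both *Hc* (13.77, the others 13.91 to 13.97) and *F7* (10.62, the others 10.95 to 11.04). In fed LWT mice on CTRL diet, replicate 2 was high for *Fga* (14.46, the others 14.07 to 14.16) and *Proc* (16.10, the others 15.76 to 15.88). For LKO mice the sets were *Cfi* in fed CTRL replicate 1 (15.79, the others 15.97 to 16.04), *F10* in fed CTRL replicate 4 (16.26, the others 16.12 to 16.17) and *Mbl2* in fasted HFD replicate 5 (16.25, the others 16.54 to 16.67).

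The difference between 2 effects passed limma's interaction test in 20 cases. For the fasting effect in LKO minus that in LWT livers, the values on CTRL diet were -0.33 for *F5* (adjusted p = 0.0193), -0.24 for *Proc* (adjusted p = 0.0214) and -0.34 for *Serpind1* (adjusted p = 0.00825). On HFD they were -0.43 for *Hc* (adjusted p = 0.0413), -0.32 for *C8g* (adjusted p = 0.0365), -0.29 for *Cfb* (adjusted p = 0.0375), -0.42 for *Mbl1* (adjusted p = 0.0243), -0.28 for *F10* (adjusted p = 0.0098) and -0.49 for *Serpinf2* (adjusted p = 0.00269). For the diet effect in LKO minus that in LWT livers, the values were 1.06 for *C8b* (adjusted p = 0.0189) and 0.41 for *F7* (adjusted p = 0.0362) in fed mice. In fasted mice they were 0.38 for *F7* (adjusted p = 0.0386), 0.29 for *F9* (adjusted p = 0.0371) and 0.27 for *Serpind1* (adjusted p = 0.0352). For the fasting effect on HFD minus that on CTRL diet, LWT livers gave 1.18 for *C6* (adjusted p = 0.0332), 1.05 for *C8b* (adjusted p = 0.0152), 0.50 for *Fga* (adjusted p = 0.0494) and 0.33 for *Fgb* (adjusted p = 0.0472). LKO livers gave 0.57 for *Mbl2* (adjusted p = 0.00254) and -0.32 for *Pros1* (adjusted p = 0.0176).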

How the results depend on the processing

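Among 168 called differences of a member in a pairwise contrast or interaction, the direction was kept in every alternative except 1. With processed signals scaled to the 75th percentile, the diet difference of *F2* in fed LWT livers turned to -0.023. With this scaling 138 calls remained, with median scaling 137, without a filter on dim probes 135, with the deposited log2 values 164, and with probes above background on all arrays 168. Without the array of lowest weight (LKO_HFD_FED replicate 3), 42 of the 43 calls it enters remained, the exception being *Fga* for fasting in LKO livers on HFD.

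Counts of members called moved by over 1.5 times as follows. Scaling to the 75th percentile gave 13 for diet in fasted LWT and 7 in fasted LKO livers, 3 for genotype by fasting on HFD, 1 for genotype by diet when fasted and 2 for diet by fasting in LWT livers. Median scaling gave 13 for genotype in fasted mice on CTRL diet, 11 for diet in fasted LWT livers, 2 for genotype by fasting on HFD, 1 and 0 for genotype by diet in fed and fasted mice, and 2 for diet by fasting in LWT livers. Without the filter on dim probes, the counts were 4 for fasting in LKO livers on HFD, 1 and 2 for genotype by fasting on CTRL diet and HFD, 1 and 0 for genotype by diet, and 1 for diet by fasting in LWT livers. Genotype by fasting on CTRL diet gave 5 with normexp, with probes above background on all arrays and with the median over probes. Without correction of the washing batch, genotype by diet gave 1 in fed and 1 in fasted mice, and diet by fasting in LWT livers 1. The slide as a block gave 11 for genotype by fasting on HFD and 4 for diet by fasting in LKO livers. Without array weights, genotype by fasting on HFD gave 3, genotype by diet when fasted 1 and diet by fasting in LWT livers 1.

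Fold changes over 1.5 were required in a stricter rule. It left 0 and 4 members for fasting in LWT livers on CTRL diet and HFD, 0 and 0 in LKO livers, 0 and 7 for genotype in fed mice on CTRL diet and HFD, and 0 and 2 in fasted mice. For diet it left 4 and 1 in fed and fasted LWT livers and 1 and 0 in LKO livers, and for the interactions 0 and 0 (genotype by fasting), 1 and 0 (genotype by diet) and 2 and 0 (diet by fasting). An adjusted p of at most 0.01 left 5 and 3 for fasting in LKO livers, 3 for diet in fed LKO livers, 1 and 2 for genotype by fasting, 0 and 0 for genotype by diet, and 0 and 1 for diet by fasting in LWT and LKO livers.

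Mice of the same replicate number in different groups had a median correlation of 0.01 (39 of 168 pairs over 0.1), and those of different number 0.00, so the numbers do not pair the mice. With the replicate block, genotype by diet in fed mice gave 1 member, the other counts stayed within 1.5 times, and 160 of 168 calls remained. The causes of these shifts were not tested. Probes as bright as that of *C3* are resolved only by rank.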
